A study of Homo sapiens with 8 samples.

Results

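The genes described here are the enzymes of glycolysis and the genes that hypoxia-inducible factor (HIF) is known to switch on, in U87MG, an established human glioblastoma cell line. They were chosen by gene symbol, and all 37 listed symbols were found among the 23368 rows of the deposited count files, with PKM written there as PKM2. Of these genes, 16 encode glycolytic enzymes, 19 are other HIF targets and 2 encode the oxygen-regulated HIF alpha subunits. All 37 passed the filter on low counts. RNA was sequenced from cells exposed to enzalutamide, a drug used against prostate cancer, for 4, 24 or 48 h, and from cells given no treatment, with 2 libraries in each of the 4 groups. All cells were kept in DMEM with serum. The labels give no oxygen level, no drug dose, no vehicle and no harvest time for the untreated cells, and the extraction text speaks of differentiation, which the treatment text does not mention. The libraries are not said to come from separate cultures, so the p-values rest on library-to-library spread alone, part of which may be technical.

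Glycolysis turns glucose into pyruvate. A first set of enzymes invests ATP to split the sugar, and a second set recovers ATP, after which lactate dehydrogenase can turn pyruvate into lactate for export. HIF is a transcription factor whose alpha subunits are hydroxylated and destroyed while oxygen is plentiful. When oxygen falls, the subunits persist, bind short DNA elements with the core ACGTG or GCGTG, and raise most glycolytic genes together with genes for blood vessel growth, acid handling and mitochondrial clearance. In glioblastoma these genes are best known from the hypoxic rims around necrosis, but many of them also answer to other signals.

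Libraries held 24620833 to 37162565 counts, and the 37 genes took 2.36 to 2.99% of them. Levels are CPM, the count of a gene relative to the size of its library, after TMM scaling, a correction for differences in library composition. The first principal component of all tested genes accounted for 65.8% of the variance, with both 48 h libraries at one end. Markers of a mesenchymal glioma line were present (8 of 8 above 1 CPM on average, among them VIM and CD44), whereas of 6 astrocyte markers only SLC1A3 exceeded 1 CPM and AQP4 had no count. In the lists for other cells, 1 of 5 immune, 1 of 4 endothelial, 1 of 4 epithelial, 2 of 4 neuron and 0 of 4 erythroid markers averaged above 1 CPM. Those above it were CD68, KDR, KRT8, SNAP25 and SYT1, while PTPRC averaged 0.0582 CPM, PECAM1 0.275 CPM and EPCAM 0.0755 CPM, and CD3E, AIF1, HBA1, HBA2 and HBB had no count in any library. CD68, which non-immune lines also express, averaged 731 CPM and made up nearly all of the immune sum, which was 930.1 to 1049 CPM at 48 h against 657.5 to 711.9 CPM in control. The 8 glioma line markers summed to 26930 to 28270 CPM at 48 h, against 18160 to 18860 CPM in control, with VIM and FN1 carrying most of the gain, while NES (10.9 and 13.2 CPM at 48 h, against 25.2 and 27.1 CPM in control) and SPARC were lower at 48 h. The 6 astrocyte markers summed to 4.87 to 5.12 CPM at 48 h, against 24.1 to 26.5 CPM in control, the endothelial list to 4.01 to 5.16 CPM, against 17.3 to 18.1 CPM, and the neuron list to 21.2 to 22.2 CPM, against 36.4 to 37.4 CPM. The epithelial list summed to 7.38 to 8.73 CPM at 48 h, against 8.33 to 8.83 CPM in control. The part of these shifts in the 48 h results was not tested.

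After 4 h, 10 of the 19 other targets rose and 3 fell, while 3 of the 16 enzymes rose and none fell. Among all 14448 genes tested, 15% rose and 13.6% fell at 4 h (28.6% in all) by edgeR's quasi-likelihood test at a Benjamini-Hochberg adjusted p under 0.05, the threshold used throughout. At 24 h, 14 enzymes rose and none fell, and 10 other targets rose and 2 fell, with 12.9% of all genes higher and 9.39% lower (22.3% in all). At 48 h, 12 enzymes rose and 2 fell, and 6 other targets rose and 8 fell, with 33.3% of all genes higher and 33.5% lower (66.9% in all). The 3 comparisons share the control libraries. Single libraries moved the smaller counts: at 4 h, 1 enzyme was called higher without control replicate 2 or either 4 h library, and 6 higher and 3 lower without either 48 h library, while 1 other target was called lower without either 4 h library. At 24 h, 9 enzymes were called higher without control replicate 2 or either 24 h library. Of the other targets at 24 h, 6 were called higher without control replicate 1 and 5 without 24 h replicate 2, and 1 was called lower on leaving out any single control, 4 h or 24 h library. With both 48 h libraries out of the fit, a setting chosen after seeing the data, 6 enzymes were called higher and 2 lower at 4 h, and 1 lower at 24 h. In bulk RNA a lower share of responding cells and less RNA per cell cannot be told apart.

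Scaling mattered at 48 h. When libraries were scaled by their totals alone, the median change of all genes at 48 h was -0.30 on the log2 scale, against -0.02 with TMM, so changes near that size depend on the choice. On that scaling 8 enzymes were higher and 4 lower at 48 h, and 3 other targets were higher and 13 lower, while all genes split into 2742 higher and 6729 lower against 4814 and 4847 with TMM. Lower on that scaling but not called with TMM were the enzymes ALDOC and ENO2 and the other targets BNIP3, LOX, PDK1, P4HA1 and ANKRD37. At 4 h the same scaling gave 3 enzymes higher and 2 lower, and all genes split into 1651 higher and 2667 lower, against 2163 and 1964 with TMM. At 24 h it gave 12 enzymes higher and none lower, and all genes split into 1359 higher and 1920 lower, against 1866 and 1356 with TMM.

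The median log2 change of the enzymes was 0.03 at 4 h, 0.41 at 24 h and 0.44 at 48 h. For the other targets it was 0.46, 0.21 and -0.05 at the same times, and for all genes tested -0.004, 0.01 and -0.02. Changes of the enzymes ran from -0.18 to 0.40 at 4 h, from -0.12 to 1.00 at 24 h and from -0.36 to 0.82 at 48 h. Those of the other targets ran from -0.63 to 1.77 at 4 h, from -1.01 to 0.96 at 24 h and from -3.44 to 2.32 at 48 h, narrowest at 24 h and widest at 48 h. On TMM-scaled levels, no enzyme had its highest mean level in control or at 4 h: 7 were highest at 24 h and 9 at 48 h. That split depends on the scaling. With library totals as the only scaling, PFKM no longer stood above control at 48 h. The median enzyme change from 24 to 48 h was then -0.13, against 0.09 with TMM. Of the other targets, 7 were highest at 4 h, 7 at 24 h and 4 at 48 h, and CA12 was highest in control. The time of highest level was not counted over all genes, of which 12.9% were called higher at 24 h and 33.3% at 48 h.

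**Figure D1:**
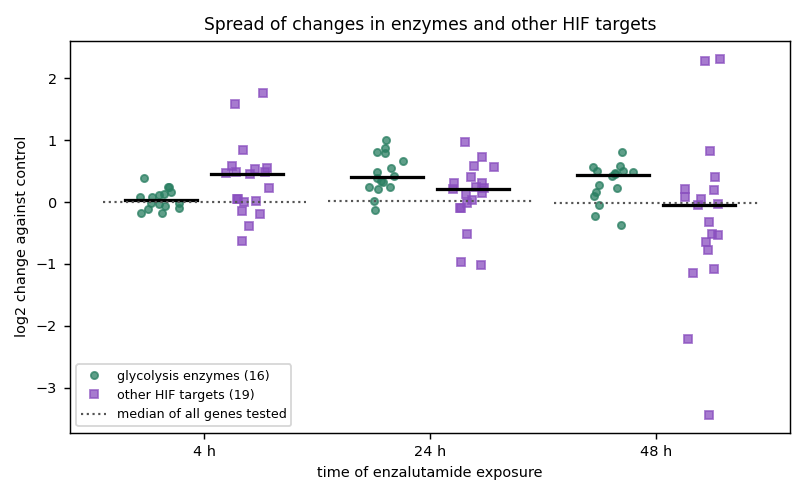
Log2 change against control (y axis) of the 16 glycolysis enzymes (circles) and 19 other HIF targets (squares) at 4, 24 and 48 h of enzalutamide. Solid bars mark each group's median and dotted lines the median of all genes tested; the enzyme median is 0.03, 0.41 and 0.44, and the other targets reach from -3.44 to 2.32 at 48 h, with TMM scaling.

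HK1, the main hexokinase of most tissues, traps glucose in the cell as its phosphate. It stood at 438 and 434 CPM in control, 472 and 478 at 4 h, 522 and 515 at 24 h, then 793 and 741 after 48 h. The 48 h libraries lay well above the other 6, and no group overlapped control. HK1 rose 1.76-fold at 48 h (log2 change 0.82, SE 0.06, adjusted p = 3.27e-07) and was also higher at 48 h than at 24 h (0.57, SE 0.06, adjusted p = 5.13e-06). Its smaller rise at 24 h (0.25, SE 0.06, adjusted p = 0.0098) was lost without either control library or either 24 h library (adjusted p = 0.0624 to 0.086).

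GPI, which converts glucose phosphate to fructose phosphate, had 321 and 302 CPM in control, 339 and 357 at 4 h, 425 and 415 at 24 h, then 492 and 438 after 48 h. Each later group lay above control, and GPI rose by 0.43 (SE 0.07) at 24 h and 0.58 (SE 0.07) at 48 h on the log2 scale. Of the phosphofructokinase genes, whose enzyme makes the committed step, PFKP had 536 and 487 CPM in control, 550 and 534 at 4 h, 616 and 599.9 at 24 h, then 770.0 and 673 after 48 h. PFKP rose by 0.50 (SE 0.07) and PFKL by 0.41 (SE 0.08) at 48 h, though PFKL was not called with library totals as the only scaling. PFKM rose by 0.22 (SE 0.06) at 48 h, but stood at -0.05 with library totals as the only scaling, and was lost without control replicate 2 (adjusted p = 0.0518). At 24 h PFKP (0.25) and PFKL (0.35) rose, but PFKP missed the threshold on leaving out any 1 of the control, 4 h or 24 h libraries (adjusted p = 0.0545 to 0.222), and PFKL without control replicate 2 or either 24 h library (0.0529 to 0.0838).

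The aldolases split the sugar into triose phosphates. ALDOA, the abundant form, had 1944 and 1729 CPM in control, 1788 and 1851 at 4 h, 2309.5 and 2309 at 24 h, then 2912 and 2518 after 48 h. The 4 h libraries fell between the controls, and the later groups lay above them. ALDOA rose by 0.56 (SE 0.08, adjusted p = 5.61e-05) at 48 h and by 0.33 (SE 0.08) at 24 h, a rise that missed the threshold without control replicate 2 or either 24 h library (adjusted p = 0.069 to 0.102). ALDOC, the form known from brain, ran a different course at a far lower count: 52.8 and 51.0 CPM in control, 70.3 and 66.6 at 4 h, 103 and 105 at 24 h, then 58.4 and 52.7 after 48 h. It rose 1.32-fold at 4 h (adjusted p = 0.00208) and 2-fold at 24 h (log2 change 1.00, SE 0.07, adjusted p = 6.68e-06). At 48 h it overlapped control (0.10, adjusted p = 0.256, and -0.18 with library totals as the only scaling) and was lower than at 24 h (-0.90, SE 0.07, adjusted p = 8.48e-07). TPI1, which interconverts the resulting triose phosphates, rose by 0.49 (SE 0.07) at 24 h and 0.28 (SE 0.07) at 48 h, the second being -0.004 with library totals as the only scaling.

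In the energy-yielding steps, GAPDH, which oxidises the triose phosphate and often serves as a reference transcript, had 3995 to 6903 CPM across libraries. It rose by 0.50 (SE 0.07, adjusted p = 7.96e-05) at 48 h, and its 4 h value was -0.17 (adjusted p = 0.0959). The 24 h rise of 0.22 (adjusted p = 0.0447) was lost on leaving out any 1 of the control, 4 h or 24 h libraries (adjusted p = 0.0827 to 0.209). PGK1, which makes the first ATP of this phase, had 798 and 789 CPM in control, 779.8 and 770.1 at 4 h, 1375 and 1365 at 24 h, then 716 and 642 after 48 h. Only the 24 h libraries were high, and the 48 h libraries were the lowest of the 8. PGK1 rose 1.73-fold at 24 h (log2 change 0.79, SE 0.06, adjusted p = 1.04e-05), fell at 48 h (-0.23, SE 0.06, adjusted p = 0.00685), and differed between these times by -1.01 (SE 0.06, adjusted p = 1.15e-07).

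PGAM1, the mutase of the next step, had 217 and 209.7 CPM in control, 224 and 228 at 4 h, 335 and 339.9 at 24 h, then 250.3 and 225 after 48 h. It rose 1.58-fold at 24 h (adjusted p = 4.73e-05). The 48 h value of 0.16 (adjusted p = 0.0493) turned to -0.12 with library totals as the only scaling and missed the threshold on leaving out any single library except 48 h replicate 2 (adjusted p = 0.0703 to 0.234). PGAM4, a near-identical copy, may share its reads.

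ENO1, the common enolase, had 2508 and 2379 CPM in control, 2601 and 2685 at 4 h, 3589 and 3561 at 24 h, then 3564 and 3162 after 48 h. It rose 1.46-fold at 24 h (adjusted p = 0.000151) and 1.38-fold at 48 h (adjusted p = 6.42e-05). ENO2, the enolase used as a neuronal marker, had 298 and 289 CPM in control, 352 and 346 at 4 h, 512 and 517 at 24 h, then 299.7 and 268 after 48 h. The 48 h libraries of ENO2 straddled the controls, unlike those of ENO1. ENO2 rose 1.75-fold at 24 h (log2 change 0.81, SE 0.06, adjusted p = 1.18e-05), and by 0.25 (SE 0.06, adjusted p = 0.0145) at 4 h, a rise lost on leaving out any 1 of the 4 libraries compared (adjusted p = 0.0588 to 0.105). PKM, the pyruvate kinase gene of most tissues and tumours, rose by 0.38 (SE 0.07) at 24 h and 0.49 (SE 0.07) at 48 h.

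The lactate dehydrogenase genes parted. LDHA, whose subunit favours making lactate, had 1060.5 and 1031 CPM in control, 1237 and 1248 at 4 h, 1934 and 1887 at 24 h, then 844 and 782 after 48 h. Its libraries at 24 h were the highest and those at 48 h the lowest, with no overlap between groups. LDHA rose by 0.25 (SE 0.06, adjusted p = 0.00768) at 4 h, by 0.87 (SE 0.06, adjusted p = 4.68e-06) at 24 h, and fell by 0.36 at 48 h (SE 0.06, adjusted p = 0.000169). The 4 h rise missed the threshold without control replicate 2 or either 4 h library (adjusted p = 0.054 to 0.0681). LDHB, whose subunit favours the reverse reaction, had 650.0 and 622 CPM in control, 609 and 615 at 4 h, 652 and 631 at 24 h, then 912 and 845 after 48 h. LDHB rose only at 48 h among the 3 times (log2 change 0.47, SE 0.06, adjusted p = 3.55e-05), and was higher there than at 24 h (0.45, adjusted p = 4.2e-05).

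**Figure D2:**
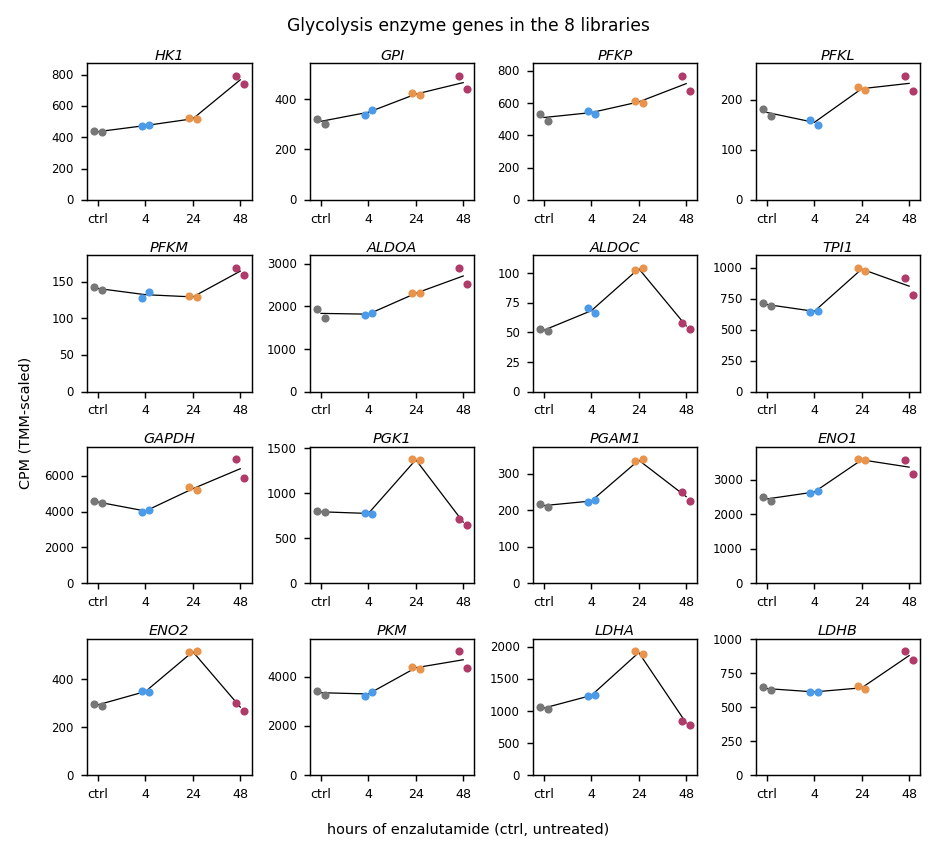
CPM (y axis, from 0) of each glycolysis enzyme gene in the 8 libraries, with control and 4, 24 and 48 h of enzalutamide at equal steps on the x axis; points are libraries and lines join group means. ALDOC, PGK1, ENO2 and LDHA peak at 24 h, with LDHA at 1934 and 1887 CPM, while HK1 and LDHB are highest at 48 h.

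Between times, 12 enzymes were higher at 24 h than at 4 h and none lower, while 7 other targets were higher and 10 lower, against 21.2% of all genes higher and 20.3% lower (41.5% in all). The 7 became 4 without 4 h replicate 2 or 24 h replicate 1. From 24 to 48 h, 6 enzymes were higher and 6 lower, and 4 other targets were higher and 13 lower, against 31.5% of all genes higher and 35.3% lower (66.8% in all); with library totals as the only scaling 2 enzymes were higher and 7 lower. At 48 h compared with 4 h, 11 enzymes were higher and 4 lower, and 6 other targets were higher and 11 lower, against 34.5% of all genes higher and 35% lower (69.5% in all). HK1 and LDHB were among the enzymes higher at 48 h than at 24 h, and PGK1, LDHA, ALDOC and ENO2 among those lower.

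Over the 3 times, 10 of the 16 enzymes were called higher at 24 and 48 h but not at 4 h. The share of all genes with this pattern was not counted, while 12.9% were higher at 24 h and 33.3% at 48 h. With both 48 h libraries out of the fit, HK1, GPI and ENO1 among these 10 were also called higher at 4 h, and PFKL and GAPDH lower. PFKM and LDHB were called higher at 48 h alone. ALDOC and ENO2 rose at 4 and 24 h and were not called at 48 h, but both were called lower at 48 h with library totals as the only scaling. LDHA and PGK1 were the 2 enzymes that rose at 24 h and fell at 48 h.

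Lactate leaves cells through monocarboxylate transporters. SLC16A3, the exporter known from glycolytic cells, had 126 and 125 CPM in control, 176 and 169 at 4 h, 188 and 187 at 24 h, then 28.2 and 26.0 after 48 h. Its 48 h libraries lay far below every other library. SLC16A3 rose 1.38-fold at 4 h (adjusted p = 0.000272) and 1.5-fold at 24 h (adjusted p = 7.8e-05), and was 4.62-fold lower at 48 h (log2 change -2.21, SE 0.07, adjusted p = 1.02e-09). SLC16A1, a transporter of broader distribution, had 179 and 175 CPM in control, 247 and 243 at 4 h, 160.0 and 173 at 24 h, then 101 and 107 after 48 h. SLC16A1 rose by 0.47 (SE 0.06, adjusted p = 0.000314) at 4 h and fell by 0.77 (SE 0.06, adjusted p = 1.31e-06) at 48 h. PDK1, the kinase that keeps pyruvate out of the mitochondrial cycle, was highest at 4 h, with 81.5 and 80.8 CPM, against 58.1 and 57.1 CPM in control. It rose by 0.49 (SE 0.07, adjusted p = 0.000297) at 4 h and by 0.31 (SE 0.07, adjusted p = 0.0074) at 24 h, a rise lost without either control library or 24 h replicate 2 (adjusted p = 0.0536 to 0.0889).

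Because 6 genes from both classes were highest at 24 h with rises of 0.73 to 1.00, the letters just upstream of them are shown: ALDOC, BNIP3, LDHA, ENO2, PGK1 and CA9. They were picked on these same values, so the sites in them are no test of a link with the 24 h rise. Sequences are the 250 bases before the gene start in RefSeq on GRCh38.p14, written 5′ to 3′ on the gene's strand, and are not coordinates of the authors' build. Capitals mark ACGTG or GCGTG on either strand, so that a match on the other strand reads CACGT or CACGC, and both strands of a CACGTG are counted as 1 site.
ALDOC, chr17:28576896-28577145, minus strand, 4 sites: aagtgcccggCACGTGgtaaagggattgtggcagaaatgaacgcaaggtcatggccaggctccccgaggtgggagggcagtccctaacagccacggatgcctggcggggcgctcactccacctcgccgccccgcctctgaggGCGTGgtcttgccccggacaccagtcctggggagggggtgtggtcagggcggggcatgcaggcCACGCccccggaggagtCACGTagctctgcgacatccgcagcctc
BNIP3, chr10:131981924-131982173, minus strand, 5 sites: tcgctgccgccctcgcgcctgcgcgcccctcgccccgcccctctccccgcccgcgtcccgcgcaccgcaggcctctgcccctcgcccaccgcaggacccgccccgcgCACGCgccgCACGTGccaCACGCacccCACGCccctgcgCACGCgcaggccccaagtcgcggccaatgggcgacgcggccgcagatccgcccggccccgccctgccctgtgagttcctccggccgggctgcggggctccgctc
LDHA, chr11:18394313-18394562, plus strand, 3 sites: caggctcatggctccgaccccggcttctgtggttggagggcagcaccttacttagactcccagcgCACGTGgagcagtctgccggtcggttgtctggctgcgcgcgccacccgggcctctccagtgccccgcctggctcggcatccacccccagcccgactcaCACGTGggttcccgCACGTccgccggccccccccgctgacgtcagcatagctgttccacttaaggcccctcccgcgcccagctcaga
ENO2, chr12:6914330-6914579, plus strand, 1 site: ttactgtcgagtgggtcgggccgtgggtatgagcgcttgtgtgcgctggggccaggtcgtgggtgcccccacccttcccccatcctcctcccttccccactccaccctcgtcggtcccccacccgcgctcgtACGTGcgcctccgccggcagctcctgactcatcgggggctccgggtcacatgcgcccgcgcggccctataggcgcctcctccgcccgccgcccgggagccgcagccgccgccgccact
PGK1, chrX:78103998-78104247, plus strand, 3 sites: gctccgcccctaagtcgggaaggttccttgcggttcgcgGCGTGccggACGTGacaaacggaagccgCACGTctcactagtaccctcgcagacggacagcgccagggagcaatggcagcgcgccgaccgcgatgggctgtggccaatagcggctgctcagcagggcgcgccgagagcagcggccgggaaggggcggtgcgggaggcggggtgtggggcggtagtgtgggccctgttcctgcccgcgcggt
CA9, chr9:35673678-35673927, plus strand, 1 site: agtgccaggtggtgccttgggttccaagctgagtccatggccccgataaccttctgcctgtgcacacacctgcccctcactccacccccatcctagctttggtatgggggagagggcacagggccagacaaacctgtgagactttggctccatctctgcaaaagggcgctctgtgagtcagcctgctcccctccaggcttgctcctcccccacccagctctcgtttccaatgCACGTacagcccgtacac
In LDHA the sites began 185, 87 and 73 bases before the gene start, the first 2 of them inside CACGTG, a sequence that other factors also bind. The single CA9 site began 18 bases before the start. Other genes were also highest at 24 h and called higher then. Of these, PGAM1 (0.66), SLC16A3 (0.58), TPI1 (0.49) and P4HA2 (0.23) held neither core in windows of the same length. ENO1 (0.55), P4HA1 (0.31) and LOX (0.25) held at least 1 site, and BNIP3L was not matched.

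Promoter windows were matched for 32 of the 37 genes, and ANKZF1, BNIP3L, NDRG1, SLC16A1 and VEGFA were not analysed here. For 27 of the 32, the first 25 bases after the gene start were found in a GENCODE transcript of the same gene. The starts of the rest were not backed in this way, so their site positions are less certain. ACGTG occurred in 14 of the 32 windows (43.8%), against 18.7% of all 27305 windows of the same length, and GCGTG in 10 (31.2%), against 31.9%. Either core was found in 9 of 16 enzymes (56.2%) and 10 of 14 other targets (71.4%), against 43.1% of all windows. CACGTG, which contains ACGTG, was found in 6 of the 32 windows (18.8%) and in 6.49% of all windows. The other 11 windows, those of EGLN3, HK1, LDHB, P4HA2, PDK1, PFKM, PFKP, PGAM1, PKM, SLC16A3 and TPI1, held neither core. At 24 h 8 of these 11 genes rose, beside 26 of all 37 genes of the set and 12.9% of all genes tested. Whether a core went with a rise was not tested. The windows were not matched on base composition, and a match is a description of letters, not of binding.

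The oxygen sensors EGLN1 and EGLN3 hydroxylate the HIF alpha subunits and are themselves HIF targets. EGLN1 had 59.5 and 57.1 CPM in control, 108 and 102 at 4 h, 58.0 and 61.0 at 24 h, then 24.1 and 30.8 after 48 h. It was high at 4 h, level with control at 24 h and low at 48 h. EGLN1 rose 1.8-fold at 4 h (log2 change 0.85, SE 0.10, adjusted p = 9.66e-05) and was 2.12-fold lower at 48 h (-1.09, SE 0.10, adjusted p = 2.94e-06). EGLN3 was scarce, with 4.7 and 4.63 CPM in control, 4.84 and 4.85 at 4 h, 2.76 and 3.79 at 24 h, then 0.374 and 0.481 after 48 h. It fell at 48 h (-3.44, SE 0.27, adjusted p = 7.2e-07), on 11 and 14 counts in the 48 h libraries.

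KDM3A, a histone demethylase that HIF induces, had 69.4 and 72.3 CPM in control, 112 and 101 at 4 h, 75.4 and 82.2 at 24 h, then 117 and 135 after 48 h. It was high at 4 and 48 h and rose by 0.58 (SE 0.08, adjusted p = 0.000476) and 0.83 (SE 0.08, adjusted p = 5.81e-06) at these times. The collagen prolyl hydroxylases moved little. P4HA1 rose by 0.31 (SE 0.06, adjusted p = 0.00506) and P4HA2 by 0.23 (SE 0.06, adjusted p = 0.0132) at 24 h; without 24 h replicate 2 P4HA1 had adjusted p = 0.0642, and P4HA2 missed the threshold on leaving out any 1 of the 4 libraries compared (0.0515 to 0.115). At 48 h P4HA2 rose by 0.19 (adjusted p = 0.00989), which was -0.09 with library totals as the only scaling and had adjusted p = 0.0705 without control replicate 1.

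Among secreted and surface products, VEGFA, the main growth factor of blood vessels, had 550.3 and 504 CPM in control, 1614 and 1563 at 4 h, 595 and 561 at 24 h, then 232 and 245 after 48 h. The 4 h libraries stood alone at the top and the 48 h libraries at the bottom. VEGFA rose 3.01-fold at 4 h (log2 change 1.59, SE 0.07, adjusted p = 7.63e-08), was not called at 24 h (0.13, adjusted p = 0.163), and was 2.21-fold lower at 48 h (-1.14, SE 0.07, adjusted p = 7.2e-08). ADM, the vasodilator peptide adrenomedullin, had 157 and 154 CPM in control, 165 and 159 at 4 h, 79.2 and 75.3 at 24 h, then 821 and 698 after 48 h. ADM was low at 24 h and high at 48 h, with no overlap with control at either time. It was 2.01-fold lower at 24 h (-1.01, SE 0.08, adjusted p = 1.03e-05) and 4.88-fold higher at 48 h (2.29, SE 0.08, adjusted p = 2.4e-09), a difference between the times of 3.30 (SE 0.08, adjusted p = 4.39e-10).

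The carbonic anhydrases help cells rid themselves of acid. CA9, a gene with little expression outside hypoxia in most tissues, had 155 and 167 CPM in control, 126 and 120.1 at 4 h, 264 and 269.5 at 24 h, then 117 and 90.3 after 48 h. Only the 24 h libraries lay above control. CA9 fell by 0.39 (SE 0.10, adjusted p = 0.0132) at 4 h, rose by 0.73 (SE 0.10, adjusted p = 0.000462) at 24 h and fell by 0.64 (SE 0.10, adjusted p = 0.000163) at 48 h; the 4 h fall was lost without control replicate 2 or either 4 h library (adjusted p = 0.0612 to 0.102). CA12 had 729.7 and 689 CPM in control, 624 and 613 at 4 h, 694 and 713 at 24 h, then 488 and 492 after 48 h. CA12 fell by 0.53 (SE 0.06, adjusted p = 7.7e-06) at 48 h and by 0.20 (SE 0.06, adjusted p = 0.022) at 4 h, a fall lost without control replicate 1 or either 4 h library (adjusted p = 0.0997 to 0.163).

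LOX, which cross-links collagen, had 422 and 479.7 CPM in control, 288 and 294 at 4 h, 528 and 543 at 24 h, then 476 and 459 after 48 h. It fell by 0.63 (SE 0.07, adjusted p = 6.78e-05) at 4 h and was higher at 24 h than at 4 h by 0.88 (SE 0.07, adjusted p = 2.6e-06). The 24 h rise over control, 0.25 (adjusted p = 0.0236), did not hold without control replicate 1 or either 24 h library (adjusted p = 0.0981 to 0.218). At 48 h its value was 0.05 (adjusted p = 0.502), and -0.23 with library totals as the only scaling.

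BNIP3 and BNIP3L mark mitochondria for removal by autophagy. BNIP3 had 108 and 94.7 CPM in control, 151 and 145 at 4 h, 198 and 198 at 24 h, then 111 and 103 after 48 h. It climbed to 24 h and overlapped control at 48 h. BNIP3 rose 1.46-fold at 4 h (adjusted p = 0.000284) and 1.95-fold at 24 h (log2 change 0.96, SE 0.07, adjusted p = 9.32e-06), and its 48 h value was 0.08, or -0.20 with library totals as the only scaling. BNIP3L rose by 0.23, 0.40 and 0.22 at 4, 24 and 48 h (SE 0.06 at each time), the last being -0.06 with library totals as the only scaling. Its calls were lost at 4 h without control replicate 2 or either 4 h library (adjusted p = 0.0705 to 0.127) and at 48 h without control replicate 2 (0.0694).

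BHLHE40, a transcriptional repressor of the circadian and hypoxic responses, had 124 and 130.3 CPM in control, 424 and 440.4 at 4 h, 189 and 188 at 24 h, then 687 and 582 after 48 h. All treated libraries lay above control, with peaks at 4 and 48 h. It rose 3.4-fold at 4 h (log2 change 1.77, SE 0.08, adjusted p = 1.37e-07), 1.48-fold at 24 h (adjusted p = 0.000469) and 4.99-fold at 48 h (2.32, SE 0.08, adjusted p = 2.31e-09). NDRG1, a stress-responsive gene linked to differentiation, had 350.2 and 322 CPM in control, 480.0 and 488 at 4 h, 390.2 and 388 at 24 h, then 276 and 259.5 after 48 h. It was highest at 4 h and lowest at 48 h. NDRG1 rose by 0.53 (SE 0.06, adjusted p = 0.000125) at 4 h and fell by 0.33 (SE 0.06, adjusted p = 0.000702) at 48 h, while its 24 h rise of 0.21 (adjusted p = 0.0318) was lost on leaving out any 1 of the control, 4 h or 24 h libraries (0.0514 to 0.227).

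ANKRD37, an ankyrin repeat gene, was scarce, with 2.35 and 2.7 CPM in control, 3.48 and 3.62 at 4 h, 1.13 and 1.47 at 24 h, then 2.28 and 1.24 after 48 h. It fell at 24 h by 0.96 (SE 0.28, adjusted p = 0.0317), a call lost on leaving out any 1 of the control, 4 h or 24 h libraries (adjusted p = 0.0519 to 0.2). ANKZF1, which acts on stalled ribosomes at mitochondria, had 17.4 to 22.0 CPM in the control, 4 h and 24 h libraries and 28.2 and 29.1 CPM at 48 h. It rose by 0.41 (SE 0.11, adjusted p = 0.00631) at 48 h, but was not called with library totals as the only scaling.

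**Figure D3:**
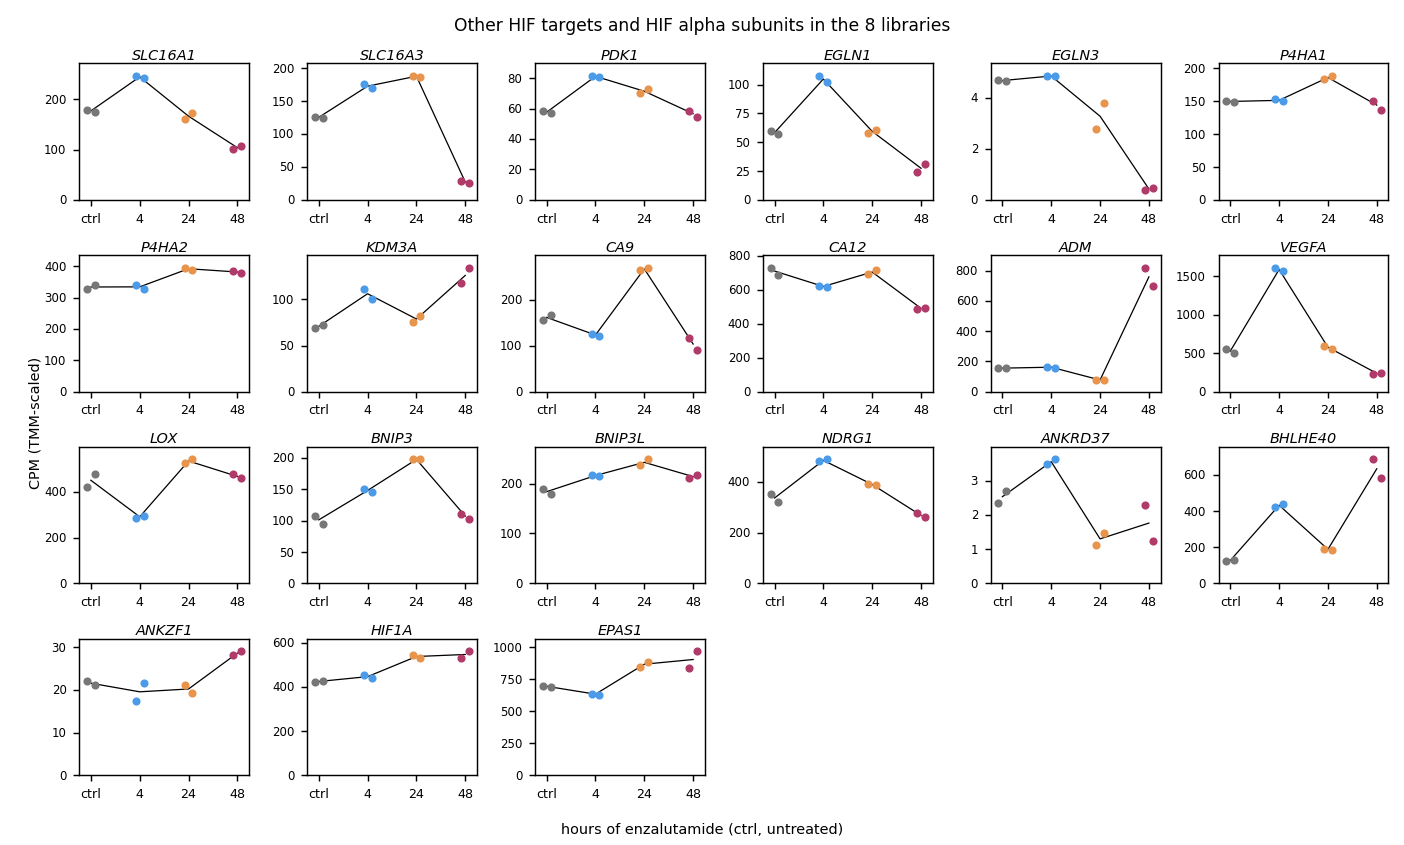
CPM (y axis, from 0) of the 19 other HIF targets and the 2 HIF alpha subunits in the 8 libraries, with control and 4, 24 and 48 h of enzalutamide at equal steps on the x axis; points are libraries and lines join group means. VEGFA peaks at 4 h (1614 and 1563 CPM), CA9 at 24 h (264 and 269.5 CPM) and ADM at 48 h (821 and 698 CPM).

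The alpha subunits themselves are controlled mainly through the stability of their proteins, which RNA does not show. HIF1A had 420.4 and 429 CPM in control, 454 and 439.8 at 4 h, 544 and 532 at 24 h, then 532 and 563 after 48 h. EPAS1, which encodes the alpha subunit of the related factor, had 699.6 and 690.2 CPM in control, 637 and 630.1 at 4 h, 849 and 887 at 24 h, then 839 and 970.5 after 48 h. Neither was called at 4 h, where HIF1A stood at 0.07 (adjusted p = 0.377) and EPAS1 at -0.13 (adjusted p = 0.181), each without overlap with control. With both 48 h libraries out of the fit, EPAS1 was called lower at 4 h. Both genes were higher at 24 and 48 h, without overlap with control. HIF1A rose by 0.34 (SE 0.06, adjusted p = 0.00175) and 0.37 (SE 0.06, adjusted p = 0.000168), and EPAS1 by 0.32 (SE 0.07, adjusted p = 0.00787) and 0.38 (SE 0.07, adjusted p = 0.000541). At 48 h the values were 0.09 and 0.10 with library totals as the only scaling and were not called. The 24 h rise of EPAS1 was lost without either control library or 24 h replicate 2 (adjusted p = 0.0548 to 0.0871).

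**Figure D4:**
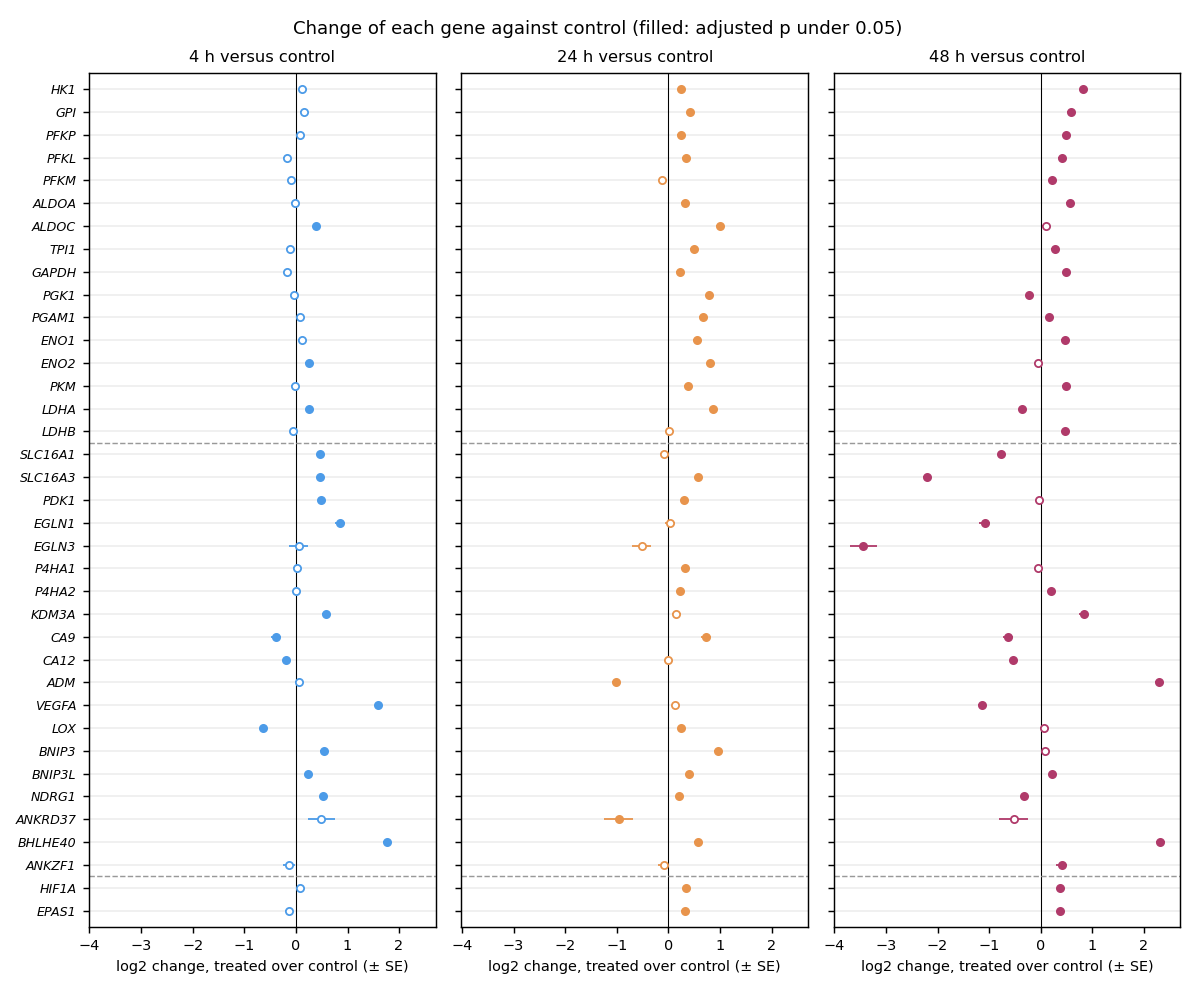
Log2 change against control (x axis, with SE bars, TMM scaling) of each gene at 4, 24 and 48 h of enzalutamide, with enzymes at the top, other HIF targets in the middle and HIF alpha subunits at the bottom. Filled points passed the adjusted p threshold; at 24 h 14 of 16 enzymes are filled to the right of 0, while at 48 h EGLN3 lies at -3.44 and BHLHE40 at 2.32. With library totals as the only scaling PFKM, ALDOC, TPI1, PGAM1, P4HA2, LOX, BNIP3 and BNIP3L change side at 48 h.

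To set isozymes beside each other, CPM were divided by exon length in GENCODE release 29 (GRCh38), and each gene was given as a share of its pair. LDHB made up 53.2 ± 0.28% of the LDHA and LDHB total in control (mean ± SD, n = 2 libraries, as for all shares), 48.0 ± 0.0236% at 4 h, 38.6 ± 0.142% at 24 h and 66.9 ± 0.0104% at 48 h. The balance thus leaned to LDHA at 24 h and to LDHB at 48 h, by more than the spread between libraries. ENO2 held 8.36 ± 0.12% of the enolase total in control, 9.12 ± 0.285% at 4 h, 9.86 ± 0.112% at 24 h and 6.03 ± 0.0256% at 48 h. ALDOC held 3.24 ± 0.184% of the aldolase total in control, 4.26 ± 0.256% at 4 h, 5.05 ± 0.0591% at 24 h and 2.36 ± 0.0718% at 48 h. These minor forms took their largest shares at 24 h and their smallest at 48 h. SLC16A3 held 39.0 ± 0.322% of the lactate transporter pair in control, 38.9 ± 0.314% at 4 h, 50.4 ± 1.5% at 24 h and 19.1 ± 1.57% at 48 h. EPAS1 held 53.9 to 57.6% of the HIF alpha pair in all groups. Lengths rest on annotated exons, not on the transcripts these cells use, so the levels of the shares are less certain than their course.

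**Figure D5:**
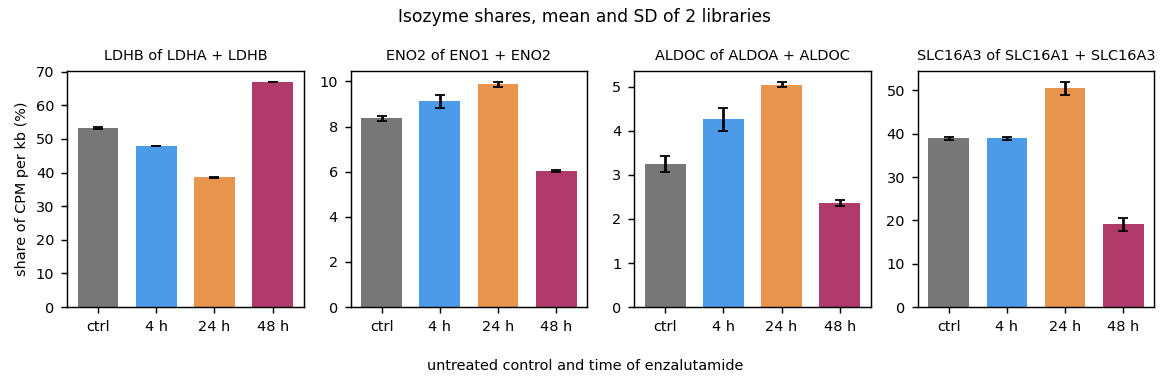
Share of CPM per kilobase of exon (y axis, percent, from 0) taken by LDHB, ENO2, ALDOC and SLC16A3 within their pairs, in control and at 4, 24 and 48 h of enzalutamide; bars are means and error bars SD of 2 libraries. LDHB is lowest at 24 h (38.6%) and highest at 48 h (66.9%), and the other 3 run the opposite way.

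Further genes of the pathway were counted by list, to be read against the shares of all genes called: 15% higher and 13.6% lower at 4 h, 12.9% and 9.39% at 24 h, then 33.3% and 33.5% after 48 h. Of 12 tested glycolysis genes outside the 16 enzymes above, such as HK2, glucose transporters and the PFKFB enzymes, 6 rose and none fell after 4 h. After 24 h, 1 of them rose and 2 fell, while after 48 h 6 were higher and the other 6 lower. The median log2 change of this list was 0.23, -0.14 and -0.22. It also holds further glycolytic enzymes, HK2, PGAM2, PGAM4, ENO3 and GAPDHS, so the counts for the 16 enzymes do not cover all of glycolysis. HK2, a second hexokinase, averaged 372 CPM in control, 445 at 4 h, 291 at 24 h and 1032 at 48 h. Of 11 genes for pyruvate entry into mitochondria, 3 fell after 4 h with none higher, 1 rose after 24 h with none lower, and after 48 h 5 were higher with 3 lower. Among 6 tested regulators of HIF, 2 fell after 4 h and 1 after 24 h, and after 48 h 1 was higher with 4 lower. Several of these counts, such as 1 higher and 2 lower of 12 at 24 h and 5 higher and 3 lower of 11 at 48 h, lay near the shares of all genes.

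Of 24 further HIF targets, 14 rose after 4 h with none lower. After 24 h 10 were higher with 3 lower, and after 48 h 10 were higher with 12 lower (medians 0.49, 0.09 and -0.18), when 33.3% of all genes were higher and 33.5% lower. ANGPTL4, a secreted inhibitor of lipoprotein lipase, had 8.78 and 9.06 CPM in control, 122 and 117 at 4 h, 10.5 and 12.1 at 24 h, then 0.306 and 0.481 after 48 h. MIR210HG, the host gene of a hypoxia-induced microRNA, fell to 0.102 and 0.103 CPM at 48 h, against 10.1 and 9.61 CPM in control. Both lay below every control library at 48 h, on 9 and 14 counts for ANGPTL4 and 3 and 3 counts for MIR210HG. HMOX1, of the same list, lay above every control library at each time. It had 387 and 372 CPM in control, 3194 and 2914 at 4 h, 489 and 416 at 24 h, then 627 and 635 after 48 h.

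Some of these genes share sequence with others. Processed copies of GAPDH, ENO1, PGK1, LDHA and similar enzymes exist, and PGK1, TPI1, PFKM, SLC16A3, ANKZF1 and ENO1 each overlap another gene of the count files in GENCODE release 29. How reads were assigned to such genes, and whether strand was used, is not known, so their reads may be misassigned.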

How the data were processed

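RNA from U87MG cells was sequenced in 8 libraries, 2 for each of 4 groups. The authors deposited raw counts per gene symbol for each library; per the submitters' processing notes, reads were mapped with Bowtie and the builds named are hg19 and GRCh37, while for the counting program, the annotation and strand the sources used here name nothing. RNA was total RNA, column-purified and DNase-treated, per the labels' protocols. Here, counts were fitted in R 4.3.3 with edgeR 4.0.16: filterByExpr left 14448 of 23368 genes, libraries were scaled by TMM, and a quasi-likelihood model with 1 coefficient per group over all 8 libraries left 4 residual degrees of freedom. P-values were adjusted over all genes by Benjamini-Hochberg at 0.05. SE is the log2 change divided by the root of F. The fitted common dispersion of 0.00512 corresponds to 7.15% variation between libraries. Replicates of a group had r of 0.992 to 0.995 across genes and differed by more than sampling noise (chi-square per degree of freedom 4.50 to 20.8). Symbols turned into dates numbered 28 and took 0.191 to 0.224% of counts. Alternatives used DESeq2 1.42.0, limma 3.58.1 (voom), other scalings and filters, a replicate block, and left-out libraries. Promoter windows and names came from RefSeq on GRCh38.p14 and exon lengths from GENCODE on GRCh38; neither was used with the authors' coordinates. Every gene of the set is accounted for, and every library's value is given for genes called with a log2 change of at least 0.5 in a comparison with control and for HIF1A and EPAS1; from the other pathway lists, up to 4 called genes with the largest change per comparison could be named. HK2 is given in addition, as a second hexokinase. The members and lists were chosen with earlier results of these data known.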

Additional observations from a re-analysis of the deposited data

Results flagged for a closer look

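The genes here were called in opposite directions against control at a pair of times, and edgeR's quasi-likelihood test of the difference between those times was also called. All log2 changes are the later time minus the earlier one.

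Among the glycolysis enzymes, PGK1 differed by -1.01 between 48 and 24 h (adjusted p = 1.15e-07). LDHA differed by -1.23 between 48 and 24 h (adjusted p = 1.76e-08) and by -0.61 between 48 and 4 h (adjusted p = 2.47e-06). Of the other HIF targets, the lactate transporter SLC16A1 differed by -1.24 between 48 and 4 h (adjusted p = 2.89e-08). SLC16A3 differed by -2.79 between 48 and 24 h (adjusted p = 3.9e-10) and by -2.67 between 48 and 4 h (adjusted p = 1.79e-10).

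Also among the other HIF targets, the oxygen sensor EGLN1 differed by -1.93 between 48 and 4 h (adjusted p = 2.9e-08). CA9 differed by 1.12 between 24 and 4 h (adjusted p = 7.54e-06) and by -1.37 between 48 and 24 h (adjusted p = 4.76e-07), the only gene of the 37 whose call changed direction at both steps. ADM differed by 3.3 between 48 and 24 h (adjusted p = 4.39e-10), the largest of the differences given here. VEGFA differed by -2.74 between 48 and 4 h (adjusted p = 1.75e-10). LOX differed by 0.88 between 24 and 4 h (adjusted p = 2.6e-06). NDRG1 differed by -0.54 between 48 and 24 h (adjusted p = 1.57e-05) and by -0.86 between 48 and 4 h (adjusted p = 3.9e-07).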

How the results depend on the processing

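With library totals as the only scaling, log2 changes at 48 h against control turned to -0.055 for PFKM, -0.18 for ALDOC, -0.0044 for TPI1, -0.12 for PGAM1, -0.085 for P4HA2, -0.23 for LOX, -0.20 for BNIP3 and -0.059 for BNIP3L. HIF1A turned to -0.19 between 48 and 24 h, and P4HA2 to -0.024 between 48 and 4 h. That scaling gave 2 enzymes lower at 4 h; at 48 h it gave 2742 genes higher, 4 enzymes lower, 3 other targets higher and 13 lower; between 48 and 24 h it gave 2 enzymes higher and 7 lower, against 6 and 6 with TMM. No other alternative tried turned the sign of a called change. At 4 h, enzymes called lower numbered 1 with no filter, 1 with the replicate block, 2 with only the groups compared and 2 with the 48 h libraries left out, which also gave 6 enzymes higher. At 24 h, genes called lower numbered 2412 with only the groups compared and 2330 without the 48 h libraries, enzymes lower numbered 1 under both, and other targets lower numbered 1 with at least 5 CPM in 2 libraries. Leaving out 1 library at a time gave, at 4 h, 1207 to 2992 genes higher and 986 to 2791 lower, 1 to 6 enzymes higher and 0 to 3 lower, and 1 to 3 other targets lower. At 24 h it gave 843 to 2879 genes higher and 489 to 2075 lower, 9 to 14 enzymes higher, and 5 to 10 other targets higher and 1 to 3 lower. Between 24 and 4 h it gave 2025 to 3730 genes higher, 1798 to 3609 lower and 4 to 8 other targets higher. Where it left 1 library in a group, its spread was taken to equal that of the other groups. Deviations of same-numbered libraries correlated weakly between groups (-0.00488 to 0.135). The main fit used no pairing, but such correlations of single differences cannot exclude one. With the replicate block 2411 genes were higher and 2213 lower at 4 h, 2169 and 1580 at 24 h, then 4945 and 4939 after 48 h. Each count was larger than without the block. Without division by exon length, shares in control, 4, 24 and 48 h were 2.755, 3.627, 4.307 and 2.008% for ALDOC, 10.72, 11.66, 12.58 and 7.779% for ENO2, 37.82, 32.99, 25.14 and 51.93% for LDHB, 41.43, 41.35, 52.99 and 20.69% for SLC16A3, and 62.06, 58.64, 61.72 and 62.24% for EPAS1. The cause was not tested for any of these shifts, except that unscaled shares differ by the exon lengths alone. With 2 libraries per group, small changes rest on few degrees of freedom, and the lowest counts, as for EGLN3 and ANKRD37, give the widest errors.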
